A study of Mus musculus with 6 samples.

Results

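RNA levels of 10 genes of Notch signalling were read in Rnf20 knockout and WT cells undergoing reprogramming: the Fringe genes Mfng, Lfng and Rfng, the receptors Notch1, Notch2 and Notch3, the ligands Jag1 and Dll1, and the target genes Hes1 and Hey1. The genes were taken by symbol from a table of 16982 genes with raw counts, and 10 of 10 were found there and passed the filter on low counts that left 13386 genes. They were chosen from the values of this same contrast, in which Mfng was among the largest falls in the knockout cells, so the values of the 10 genes in this contrast are given as a description and without p-values.

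The study asked what the loss of RNF20, the ubiquitin ligase that adds ubiquitin to histone H2B, does to mouse fibroblasts that are being turned into pluripotent stem cells. It compared 3 libraries from Rnf20+/+ (WT) cells with 3 from Rnf20-/- (KO) cells, all C57BL/6 mouse embryonic fibroblasts (MEF) infected with retroviruses for C-MYC, KLF4, SOX2 and OCT4 (OSKM) and harvested at day 3. The knockout cells carried floxed Rnf20 alleles and Tamoxifen-cre, a Cre recombinase expressed in all tissues that acts once 4-OH tamoxifen is added. The labels list both genotypes as untreated, and whether the WT cells carried Cre or received the drug is not given in the sources used here. The reprogramming protocol moves infected cells onto a layer of growth-arrested fibroblasts, and whether the sequenced cultures held such cells is not given either. Nor do the labels say whether the libraries of a genotype came from separate embryos, so the errors measure the spread between these libraries.

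Notch receptors are single-pass membrane proteins that are activated by ligands of the Delta and Jagged families on a neighbouring cell. After ligand binding, an ADAM protease and gamma-secretase cut the receptor, and its intracellular domain enters the nucleus, joins the DNA-binding protein RBPJ and switches on target genes of the Hes and Hey families. Fringe proteins are glycosyltransferases of the Golgi that add N-acetylglucosamine to O-linked fucose on the receptor, which changes how well the receptor answers Delta and Jagged ligands. In fibroblasts and mural cells Notch signalling is known for its part in differentiation and in contacts with endothelial cells.

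Counts were scaled to CPM, a gene's counts as a proportion of the library total on a fixed scale, on library sizes normalized by the trimmed mean of M-values (TMM), and levels that are compared between genes were divided by gene length (RPKM, CPM per kilobase of the deposited length). Fold changes are KO over WT on the log2 scale with a standard error (SE). Calls rest on edgeR's quasi-likelihood test and p-values adjusted after Benjamini-Hochberg. A called gene has an adjusted p under 0.01, a log2 fold change above 1 in size, and a deposited FPKM whose mean is over 1 in either genotype. In bulk RNA, fewer cells that express a gene and less RNA per cell cannot be told apart.

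The libraries held 20545442 to 21746898 counts. Rnf20 was at 107 ± 0.781 CPM in WT and 17.9 ± 1.29 CPM in KO (SD, n = 3), a log2 fold change of -2.57 (SE 0.0812, adjusted p = 0.000163), with all 3 knockout libraries below all WT libraries. KO replicate 3 stood apart. Per gene, the chi-square between replicates was 6.04 to 8.92 among WT libraries and 8.57 between KO replicates 1 and 2, but 92.4 and 101.4 between KO replicate 3 and the other two. The fibroblast markers carried most marker RNA in every library, with a summed level of 21398 CPM in KO replicate 3 and 30124 to 39589 CPM in the other 5, and 1 of the 9 fibroblast markers, Thy1, was called lower in KO. Against the other 5 libraries, KO replicate 3 had a macrophage and blood sum of 242 CPM against 59.8 to 107. Lyz2, at 159 CPM, held most of this sum, and Adgre1 was at 31.9 CPM. Ptprc, Csf1r and Cd52 were also highest in KO replicate 3, whereas Cd68 (8.57 CPM) and Laptm5 (19.9 CPM) lay within the range of the other 5. The epithelial sum of KO replicate 3 was 5.33 CPM against 29.4 to 51.2 and its endothelial sum 33.8 CPM against 60.3 to 72.6. Its mural sum was 344 CPM against 375 to 497 and its myogenic sum 4.29 CPM against 7.08 to 12.5. The endothelial genes Pecam1 and Cdh5 stayed between 0 and 0.525 CPM in all libraries, and Tek held most of the endothelial sum. The Schwann and neural sum was 191 to 219 CPM in WT and 299.6 to 368 CPM in KO. The Y-linked gene Ddx3y had 0 counts in KO replicates 1 and 3 and 1990 to 2686 counts in the other 4 libraries. By this gene the KO libraries were not all alike in sex, and so did not all come from the same embryo, while all WT libraries held Y-linked RNA. The sex of the cells was thus not balanced between the genotypes. The part of these markers in the values of the Notch genes was not tested, so values are given with and without KO replicate 3.

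In WT cells the target Hes1 had the highest level of the 10 genes, with a mean of 24.0 RPKM, and Notch2 followed with 20.4 RPKM. Notch1 (14.7 RPKM), Notch3 (13.3 RPKM) and Jag1 (12.4 RPKM) came next, with libraries that overlapped between neighbours in that order. Rfng (10.9 RPKM) and Lfng (6.03 RPKM) were each clear of their neighbours. Hey1 (2.52 RPKM), Mfng (2.34 RPKM) and Dll1 (1.68 RPKM) were lowest and overlapped. In KO cells Hes1 (31.5 RPKM), Notch3 (20.49 RPKM) and Notch2 (20.3 RPKM) overlapped at the top. Mfng took the lowest place with 0.145 RPKM, below every library of Dll1, its neighbour in the order. In the FPKM values that the authors deposited, Jag1 ranked above Notch1 and Notch3 in WT with a mean of 14.4 and Mfng ranked above Hey1 with 3.98 against 3.24.

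**Figure D1:**
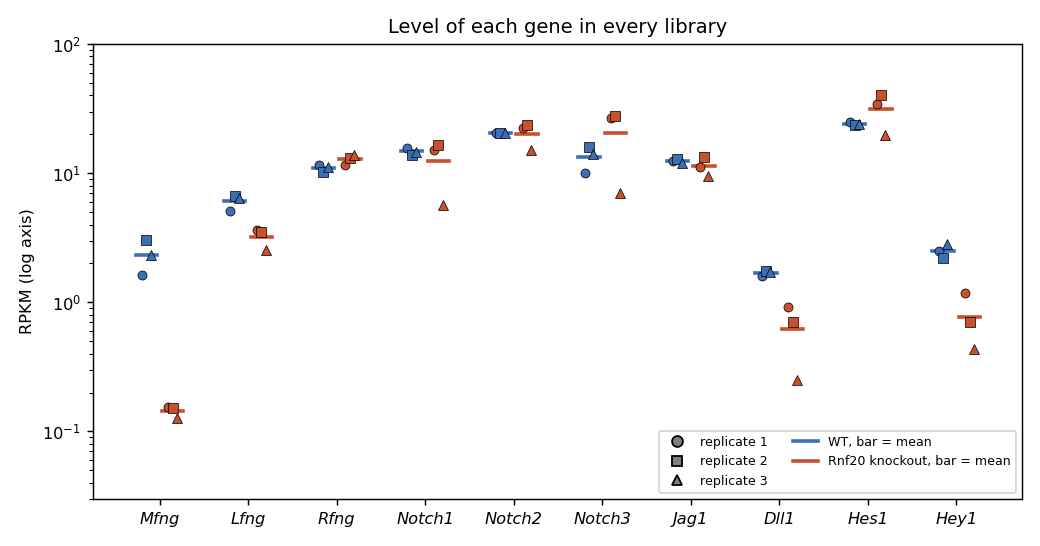
Level of each of the 10 genes in RPKM (log axis) in 3 WT libraries (blue) and 3 KO libraries (red), with the replicate number as the symbol and the group mean as a bar. The KO symbols lie below all WT symbols for Mfng, Lfng, Dll1 and Hey1, and KO replicate 3 (triangle) lies far under the other two KO symbols for Notch1 and Notch3.

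Of the 10 genes, 1 was called in the knockout cells, Mfng, against a background of 3.59% of all genes tested (2.08% lower and 1.5% higher). Libraries of the 2 genotypes did not overlap for 5 of the 10 genes, with KO below WT for Mfng, Lfng, Dll1 and Hey1 and above it for Rfng, whereas 54.8% of all genes did not overlap (28.2% with KO below and 26.6% with KO above). Since the genes were chosen with this contrast in view, nothing is read from these counts. The median log2 fold change of the 10 genes was -0.18, beside -0.00032 over all genes, and it was 0.049 beside -0.0068 without KO replicate 3.

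Mfng (Manic fringe, ENSMUSG00000018169, GRCm38 chromosome 15, 78755882-78773475, minus strand) gave 64, 120 and 92 counts in WT replicates 1 to 3 and 6, 6 and 5 counts in KO replicates 1 to 3. Its level was 1.63, 3.05 and 2.34 RPKM in WT and 0.154, 0.153 and 0.128 RPKM in KO. The lowest WT library stood far above the highest KO library, the KO libraries lay close together, and KO replicate 3 lay with the other two. The mean fell to 6.18% of WT, a 16.2-fold lower level, with a log2 fold change of -3.99 (SE 0.354), which ranked 9 among the falls of all 13386 genes and 2 among the called genes. Without KO replicate 3 the log2 fold change was -3.91 (SE 0.423). The WT libraries of Mfng had a coefficient of variation of 30.4%, the widest of the 10 genes in WT. The KO levels of 0.238 to 0.286 CPM were above the 0.142 to 0.143 CPM that 3 counts are worth. When any one of WT replicates 1 to 3 or of KO replicates 1 and 2 was left out, Mfng was no longer called, with log2 fold changes of -4.19 to -3.75, and in these edgeR fits 0 of the 10 genes were called.

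Lfng (Lunatic fringe, chromosome 5, 140607320-140615545, plus strand) is the Fringe gene best known from the segmentation clock of the embryo. It was at 5.05, 6.61 and 6.42 RPKM in WT replicates 1 to 3 and at 3.64, 3.50 and 2.52 RPKM in KO replicates 1 to 3. Every KO library lay below every WT library, and KO replicate 3 was the lowest. The KO mean was 53.5% of WT, with a log2 fold change of -0.90 (SE 0.186) over all libraries and -0.75 (SE 0.142) without KO replicate 3.

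Rfng (Radical fringe, chromosome 11, 120780746-120784207, minus strand) went the other way by a small amount. Its levels were 11.5, 10.1 and 11.2 RPKM in WT and 11.5, 13.2 and 13.9 RPKM in KO. The highest WT library and the lowest KO library almost met, at 24.29 and 24.34 CPM. The log2 fold change was 0.23 (SE 0.105), and 0.17 (SE 0.0953) without KO replicate 3.

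The 3 Fringe genes thus moved unequally. Lfng and Rfng are shown by the 250 bases before their RefSeq start site because they stand for a member that was lower and a member that was not, and RBPJ, which carries the Notch signal to DNA, binds the core letters TGGGAA. Lfng lies at chr5:140607091-140607340 on the plus strand and Rfng at chr11:120784205-120784454 on the minus strand of GRCm38.p6. Both are written 5′ to 3′ with matches to the core, on either strand, in capitals.
Lfng: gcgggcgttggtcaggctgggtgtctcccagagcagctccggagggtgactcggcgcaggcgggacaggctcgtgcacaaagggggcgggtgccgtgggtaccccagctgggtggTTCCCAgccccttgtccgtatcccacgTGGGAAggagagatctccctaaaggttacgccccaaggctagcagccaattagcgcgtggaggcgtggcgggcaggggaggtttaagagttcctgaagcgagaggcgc
Rfng: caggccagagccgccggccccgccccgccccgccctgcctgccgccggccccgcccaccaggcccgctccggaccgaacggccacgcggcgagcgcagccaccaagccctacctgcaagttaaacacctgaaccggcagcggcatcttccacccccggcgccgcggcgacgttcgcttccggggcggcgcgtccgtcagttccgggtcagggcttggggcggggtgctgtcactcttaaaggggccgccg
The window of Lfng held 2 matches, one on the minus strand that begins 135 bases before the start and one on the plus strand that begins 108 bases before it, of which 1 also matched the longer form GTGGGAA. The window of Rfng held none. RefSeq promoters, from 250 bases before to 50 bases after a start, were on hand for 7 of the 10 genes, and Lfng was the only gene of these 7 with a match. No promoter was on hand for Mfng, Hes1 or Hey1. Dll1, which was also lower in KO, had 0 matches in each of its promoters. Whether a match bears on the direction of a gene was not tested. Both strands were searched, the longer form contains the core, and 25.6% of 32851 promoters held the core and 6.38% the longer form. These matches are letters in a window and not measured binding.

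Among the 3 Fringe RNAs, Mfng made up 8.99%, 15.4% and 11.7% of the summed RPKM in WT and 1.004%, 0.908% and 0.771% in KO. Its share was 12.05% ± 3.23 in WT and 0.894% ± 0.117 in KO (SD, n = 3), and the libraries did not overlap. The share of Rfng was 63.2%, 51.2% and 56.1% in WT and 75.2%, 78.3% and 84.0% in KO, so Rfng was the most abundant Fringe RNA in all 6 libraries and more so in each KO library. Lfng made up 31.1% ± 2.92 in WT and 19.96% ± 4.37 in KO. The summed Fringe level was 18.2, 19.79 and 19.97 RPKM in WT and 15.3, 16.8 and 16.6 RPKM in KO, with each KO library below each WT library. From the deposited FPKM values, which use another length model, the share of Mfng was 17.2% in WT and 1.22% in KO.

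**Figure D2:**
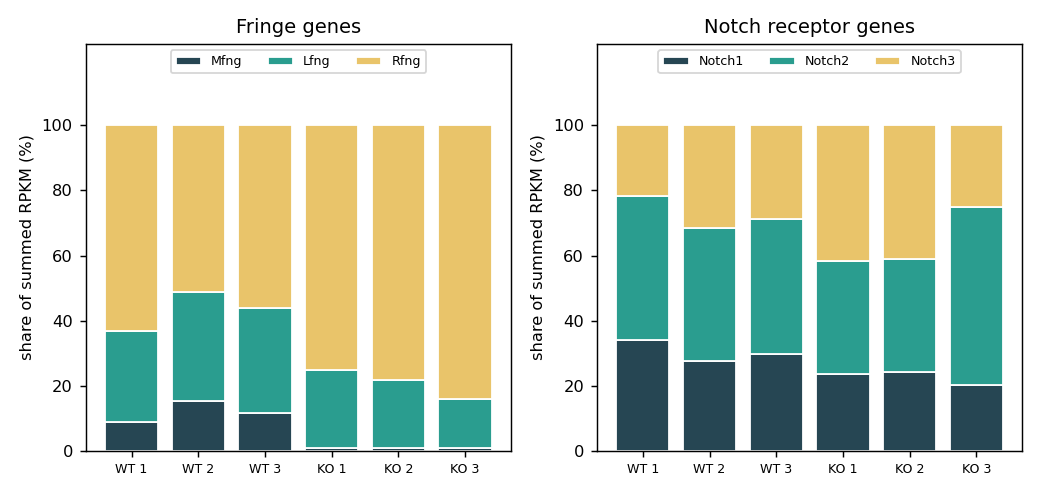
Share of each gene in the summed RPKM (percent) of the 3 Fringe genes (left) and of the 3 Notch receptor genes (right), with 1 bar per library. The band of Mfng shrinks from 8.99% to 15.4% in WT to 0.771% to 1.004% in KO, and the band of Notch3 is widest in KO replicates 1 and 2.

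KO replicate 3 differed from the other KO libraries for each of the 3 receptors, which were all above their WT means in KO replicates 1 and 2 and all below them in KO replicate 3. Notch1 (chromosome 2, 26457903-26516663, minus strand) was at 15.8, 13.8 and 14.7 RPKM in WT and at 15.2, 16.5 and 5.64 RPKM in KO. KO replicates 1 and 2 were within or just above the range of WT, and KO replicate 3 was far below it, at 38.2% of the WT mean. The log2 fold change of Notch1 was -0.24 (SE 0.362) with all libraries and 0.11 (SE 0.0673) without KO replicate 3, so its direction rested on that library.

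Notch2 (chromosome 3, 98013527-98150361, plus strand) had the narrowest spread of the 10 genes in WT, with 20.46, 20.44 and 20.34 RPKM and a coefficient of variation of 0.315%. In KO it was at 22.2, 23.4 and 15.2 RPKM. KO replicates 1 and 2 lay above all WT libraries and KO replicate 3 below them. The log2 fold change was -0.011 (SE 0.157), and 0.16 (SE 0.0505) without KO replicate 3.

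Notch3 (chromosome 17, 32120820-32166852, minus strand), the receptor best known from mural cells around blood vessels, varied most of the receptors. It was at 10.02, 15.8 and 14.1 RPKM in WT and at 26.8, 27.7 and 6.97 RPKM in KO. KO replicates 1 and 2 stood at 201% and 208% of the WT mean, whereas KO replicate 3 stood at 52.4%, below every WT library. The log2 fold change was 0.62 (SE 0.484), and 1.03 (SE 0.142) without KO replicate 3, in which case Notch3 was called higher. The mural marker sum, which Notch3 is not part of, was 442, 497 and 344 CPM in KO replicates 1 to 3 and 375 to 428 CPM in WT. Pdgfrb and Cspg4 held most of this sum. In KO replicates 1 to 3, Cspg4 was at 179, 184 and 78.8 CPM and Pdgfrb at 224, 267 and 236 CPM. The mural marker Rgs5 did not follow the sum, with 1.81, 6.69 and 6.91 CPM in these libraries, and Kcnj8 and Abcc9 were too low to be tested. The part of mural cells in the Notch3 values was not tested.

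The summed receptor level was 46.3, 50.1 and 49.1 RPKM in WT and 64.2, 67.5 and 27.8 RPKM in KO. Notch3 took 27.3% ± 5.12 of it in WT and 35.9% ± 9.43 in KO, with 41.7%, 41.0% and 25.1% in KO replicates 1 to 3. Notch1 had a smaller share in every KO library, 23.7%, 24.4% and 20.3%, than in any WT library, the lowest of which had 27.5%. Notch2 held 42.2% ± 1.81 in WT and 34.5%, 34.6% and 54.7% in KO replicates 1 to 3. The shares of Notch2 and Notch3 thus depended on which KO library was read.

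Exons of Notch1, Notch2, Notch3 and Dll1 overlap exons of other annotated genes, so reads of such exons could have been assigned to either gene. For Notch1 these are 0610009E02Rik and Gm13568, for Notch3 Gm17276 and for Dll1 A930024N18Rik, all on the opposite strand. Counting by strand would separate these, but whether the authors did so is not given. For Notch2 the other gene is Gm42820 on the same strand, which counting by strand would not separate.

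The 2 ligands differed. Jag1 (chromosome 2, 137081456-137116644, minus strand), the Jagged ligand, was at 12.4, 12.8 and 11.9 RPKM in WT and at 11.2, 13.4 and 9.52 RPKM in KO. The KO libraries lay on both sides of the WT range. Its log2 fold change of -0.12 (SE 0.126) became -0.0068 (SE 0.0787) without KO replicate 3.

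Dll1 (Delta-like 1, chromosome 17, 15367354-15376872, minus strand) was low in WT and lower in KO. It had 121, 132 and 129 counts in WT and 69, 53 and 19 counts in KO, or 1.60, 1.75 and 1.71 RPKM in WT and 0.917, 0.701 and 0.252 RPKM in KO. The 3 WT libraries were tightly grouped, all KO libraries lay below them, and KO replicate 3 was lowest. The KO mean was 37.0% of WT, with a log2 fold change of -1.43 (SE 0.419), and -1.05 (SE 0.203) without KO replicate 3, in which case Dll1 was called lower.

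The 2 targets went in different directions. Hes1 (chromosome 16, 30064384-30067796, plus strand), a transcriptional repressor that many signals besides Notch can induce, was at 24.8, 23.5 and 23.8 RPKM in WT and at 34.4, 40.4 and 19.6 RPKM in KO. KO replicates 1 and 2 were above all WT libraries, at 143% and 168% of the WT mean, and KO replicate 3 was below them, at 81.6%. The log2 fold change was 0.39 (SE 0.242), and 0.64 (SE 0.0712) without KO replicate 3.

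Hey1 (chromosome 3, 8663359-8667256, minus strand), a repressor of the Hey family, had 128, 113 and 144 counts in WT and 60, 36 and 22 counts in KO. Its level was 2.51, 2.21 and 2.82 RPKM in WT and 1.18, 0.705 and 0.432 RPKM in KO. All KO libraries were lower than all WT libraries, and they differed among themselves more than the WT libraries did. The KO mean was 30.7% of WT, with a log2 fold change of -1.70 (SE 0.359), and -1.41 (SE 0.254) without KO replicate 3, in which case Hey1 was called lower.

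**Figure D3:**
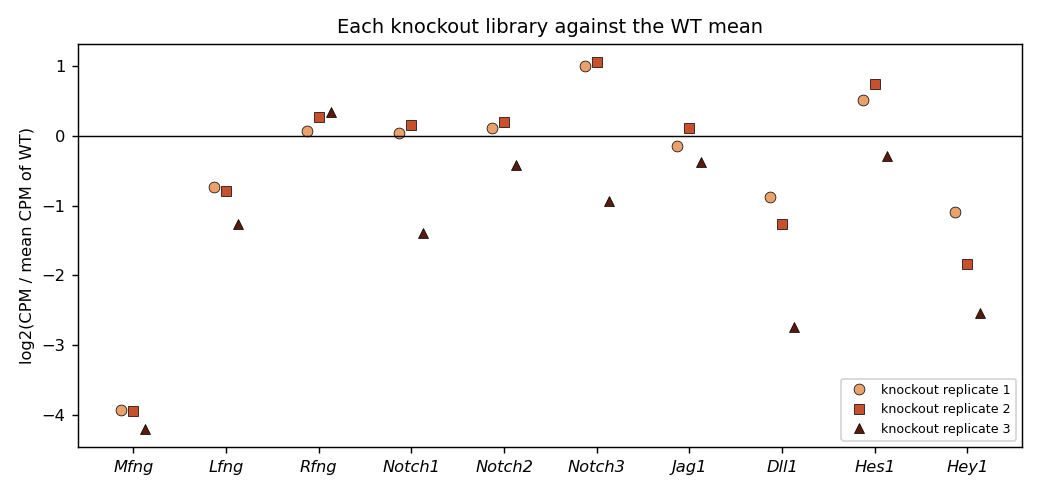
Each KO library against the WT mean for the 10 genes, as log2 of the ratio of CPM, with the replicate as colour and symbol and the line at 0 marking the WT mean. The 3 KO libraries lie together below the line for Mfng, and KO replicate 3 lies on the other side of the line from KO replicates 1 and 2 for Notch1, Notch2, Notch3 and Hes1.

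KO replicate 3 was under 50% of the mean of KO replicates 1 and 2 for 4 of the 10 genes. These were Notch3 (25.6%), Dll1 (31.2%), Notch1 (35.6%) and Hey1 (45.8%), and Hes1 followed with 52.4%. Over all genes 7.62% were under 50% and 4.74% were over 200% of that mean, and among the other genes of the pathway 6 of 63 were. Rfng was the only one of the 10 genes that was higher in KO replicate 3 than in this mean, at 113% of it.

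The rest of the pathway was read in 71 further genes, sorted by role, of which 70 were in the table and 63 passed the filter. The lists held ligand, receptor, glycosylation, protease, trafficking, nuclear, target and co-repressor genes, and every listed gene was read whatever its values. The lists were, however, chosen with earlier results of these data known. At an adjusted p under 0.05 in edgeR's quasi-likelihood test, 16 were lower and 6 higher in KO, which is 34.9% of the 63 beside 33% of all genes (16.6% lower and 16.4% higher). Libraries of the genotypes did not overlap for 52.4% of the 63 genes, among them these 22, beside 54.8% of all genes. Only 1 was called, Dlk1, which was lower. No gene was called higher in this test, although 10 of them were higher at an unadjusted p under 0.05, and DESeq2 called 1, Dlk2. The median log2 fold change of the 63 genes was -0.044, and -0.040 without KO replicate 3. The lists are short. Their shares at an adjusted p under 0.05, in either direction, are given beside the 33% of all genes. The share was 30.8% for the nuclear complex, 33.3% for other sugar enzymes and for GDP-fucose supply, and 0% for proteases. It was 50% for other ligands and for co-repressors, 54.5% for trafficking and ubiquitin ligases and 60% for other targets.

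Among 4 other ligands tested, Dlk1, an imprinted Delta-like protein without the receptor-binding domain of Delta ligands that is known from preadipocytes, was at 55.9, 83.8 and 84.0 CPM in WT and at 15.1, 15.2 and 5.67 CPM in KO. All KO libraries were several times below all WT libraries. Its log2 fold change was -2.64 (SE 0.380, adjusted p = 0.00585), and -2.30 (adjusted p = 4.86e-06) without KO replicate 3. Left out in turn, any WT library or KO replicate 1 or 2 raised the adjusted p of Dlk1 to between 0.0138 and 0.0371, above the threshold for a call. Its paralogue Dlk2, picked after its values were seen, was higher in KO by 1.01 (SE 0.208, adjusted p = 0.0146), at 2.42 to 3.09 CPM in WT and 4.53 to 6.08 CPM in KO. Notch4, the remaining receptor, was at 6.99 to 8.21 CPM in WT and 1.91 to 6.97 CPM in KO, with a log2 fold change of -0.86 (SE 0.424, adjusted p = 0.160). The Delta ligands Dll3 and Dll4 were too low to be tested.

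Of 9 other enzymes that place sugars on the receptor, 2 passed an adjusted p of 0.05 as lower and 1 as higher. Kdelc2, a glucosyltransferase, fell by 0.36 (SE 0.0687, adjusted p = 0.0114) and Xxylt1, a xylosyltransferase, fell by 0.32 (SE 0.0759, adjusted p = 0.0223), whereas Eogt, which adds N-acetylglucosamine, rose by 0.36 (SE 0.108, adjusted p = 0.0434). B4galt1, which adds galactose to the sugar that Fringe places, was the most abundant of them by RPKM in WT and had a log2 fold change of 0.36 (SE 0.169, adjusted p = 0.140), with KO replicate 3 at 220.0 CPM and the other 5 libraries between 130.4 and 148 CPM. In the supply of GDP-fucose, the donor of the sugar that Fringe extends, 1 of 6 genes was lower and 1 was higher. Fuk, the fucokinase of the salvage route, fell by 0.48 (SE 0.140, adjusted p = 0.0397), and Fpgt, which makes GDP-fucose in the next step of that route, rose by 0.42 (SE 0.102, adjusted p = 0.0229). Tsta3, the GDP-fucose synthase of the main route, had a log2 fold change of -0.036 (SE 0.120, adjusted p = 0.836). Kdelc2, Xxylt1, Eogt and Fpgt were picked after their values were seen.

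None of the 10 protease genes that process the receptor passed an adjusted p of 0.05 in edgeR's test, and 2 were higher and 0 lower at an unadjusted p under 0.05 in both edgeR and DESeq2. Psen2, a presenilin of gamma-secretase, had the largest log2 fold change, 0.52 (SE 0.196, adjusted p = 0.0826). Psenen, a further subunit and the most abundant by RPKM in WT, was at -0.092 (SE 0.123, adjusted p = 0.585).

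Of 11 trafficking and ubiquitin ligase genes, 4 were lower and 2 were higher. Neurl1b, a Neuralized ubiquitin ligase that acts on Notch ligands, had the largest difference, with 1.28 to 2.19 CPM in WT and 0.332 to 0.382 CPM in KO. Its log2 fold change was -2.20 (SE 0.340, adjusted p = 0.00679), and its FPKM was too low for a call. Dtx3, of the Deltex family of ubiquitin ligases, fell by 0.48 (SE 0.0851, adjusted p = 0.00953) and Dtx2 of the same family by 0.37 (SE 0.0921, adjusted p = 0.0242). Numbl, an endocytic adaptor, fell by 0.34 (SE 0.0755, adjusted p = 0.0176), whereas its relative Numb, known as an inhibitor of Notch, rose by 0.22 (SE 0.0691, adjusted p = 0.0483). Fbxw7, the ubiquitin ligase that marks the Notch intracellular domain for degradation, rose by 0.39 (SE 0.0752, adjusted p = 0.0117). Dtx2, Dtx3, Numb and Fbxw7 were picked after their values were seen.

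Of 13 genes of the nuclear complex, 4 passed an adjusted p of 0.05 in edgeR's test as lower and 0 as higher, with the same counts at an unadjusted p under 0.05 in edgeR and in DESeq2. These 4 are 30.8% of the 13, beside 33% of all genes (16.6% lower and 16.4% higher). The Mastermind coactivators Maml3 (-0.57, SE 0.110, adjusted p = 0.0121) and Maml1 (-0.35, SE 0.102, adjusted p = 0.0396), the corepressor Ctbp1 (-0.35, SE 0.0657, adjusted p = 0.0110) and the RBPJ-binding coregulator Snw1 (-0.24, SE 0.0705, adjusted p = 0.0392) all fell on the log2 scale. Both activating and repressing cofactors were thus among the 4. Of 4 Groucho genes, which encode corepressors of Hes proteins, Tle2 (-0.68, SE 0.200, adjusted p = 0.0405) and Tle3 (-0.56, SE 0.115, adjusted p = 0.0141) fell and 0 rose at that threshold, also at an unadjusted p under 0.05 in edgeR and DESeq2. Maml1 and Snw1 were picked after their values were seen.

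The genes listed as other targets, whose control by Notch was not measured here, moved both ways. Of 5 tested, 2 were lower (Nrarp and Heyl) and 1 was higher (Hes6). Nrarp, a target that feeds back on the Notch complex, was at 13.7, 15.1 and 12.4 CPM in WT and at 6.87, 3.99 and 2.86 CPM in KO. The KO libraries of Nrarp lay well below the WT libraries, as those of Hey1 did, and its log2 fold change was -1.59 (SE 0.307, adjusted p = 0.0120). Nrarp was called lower with DESeq2, and in edgeR without KO replicate 1 and without KO replicate 3 (-1.34, adjusted p = 0.000443). It was not called when KO replicate 2 or any WT library was left out. Heyl, a relative of Hey1, fell by 1.75 (SE 0.539, adjusted p = 0.0466) from 2.94 to 3.27 CPM in WT to 0.286 to 1.66 CPM in KO. Hes6, which is known to oppose Hes1, was at 33.6, 30.8 and 32.3 CPM in WT and at 52.5, 50.9 and 53.4 CPM in KO. The 3 KO libraries of Hes6 agree within a narrow range, KO replicate 3 included, and its log2 fold change was 0.70 (SE 0.0716, adjusted p = 0.00316). Hey2 was at 1.85 to 2.42 CPM in WT and at 5.92, 3.70 and 2.24 CPM in KO, with a log2 fold change of 0.91 (SE 0.374, adjusted p = 0.104), and without KO replicate 3 it was called higher (1.19, adjusted p = 0.00441). Efnb2, the most abundant of the 5 by RPKM in WT, had a log2 fold change of 0.24 (SE 0.192, adjusted p = 0.354). Nrarp, Hes6 and Hey2 were picked after their values were seen.

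**Figure D4:**
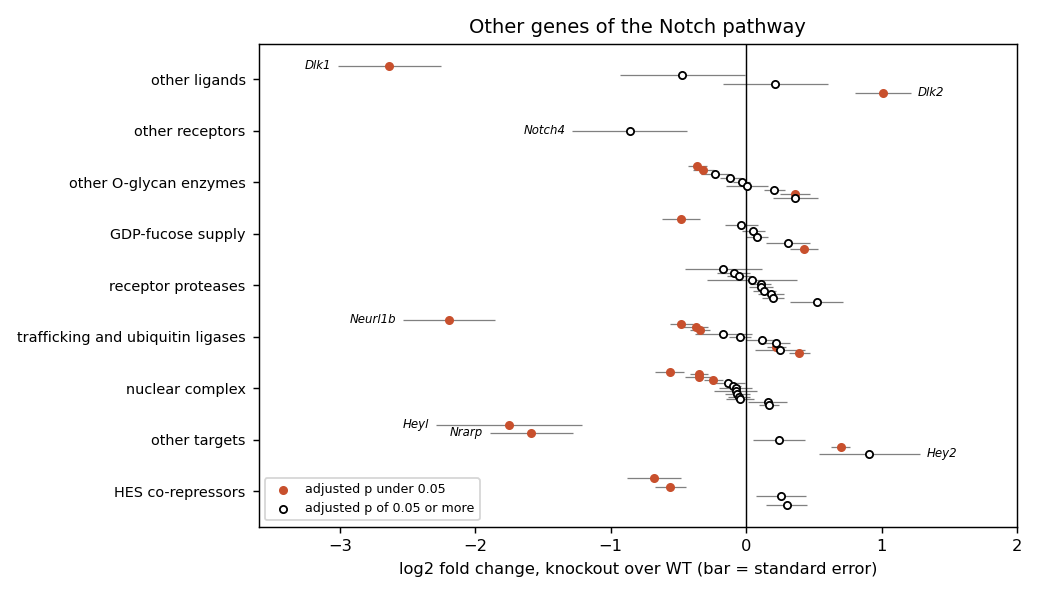
Log2 fold change of KO over WT (x axis, bar = SE) for the 63 other genes of the pathway that passed the filter, in lines by role, with filled points for an adjusted p under 0.05. Dlk1 at -2.64 and Neurl1b at -2.20 lie furthest to the left, and none of the 10 receptor proteases is filled.

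The 3 nearest tested genes on each side of Mfng on chromosome 15 were read as well. None of the 6 was called in edgeR's test or in DESeq2, and at an unadjusted p under 0.05 each test found 1 lower and 1 higher. The closest, Card10, a scaffold protein gene that starts 29.6 kb away, had a log2 fold change of -0.060 (SE 0.217, adjusted p = 0.849). On that side, Cdc42ep1 was at 0.46 (SE 0.125, adjusted p = 0.0324) and Gga1 at 0.022 (SE 0.109, adjusted p = 0.888). On the other side, C1qtnf6 was at -0.76 (SE 0.200, adjusted p = 0.0297), Cyth4 at 0.97 (SE 0.582, adjusted p = 0.235) and Rac2 at 1.87 (SE 1.002, adjusted p = 0.188). Without KO replicate 3, Rac2, a GTPase of blood cells, was at -0.34, Cyth4 at 0.12 and Card10 at 0.15.

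**Figure D5:**
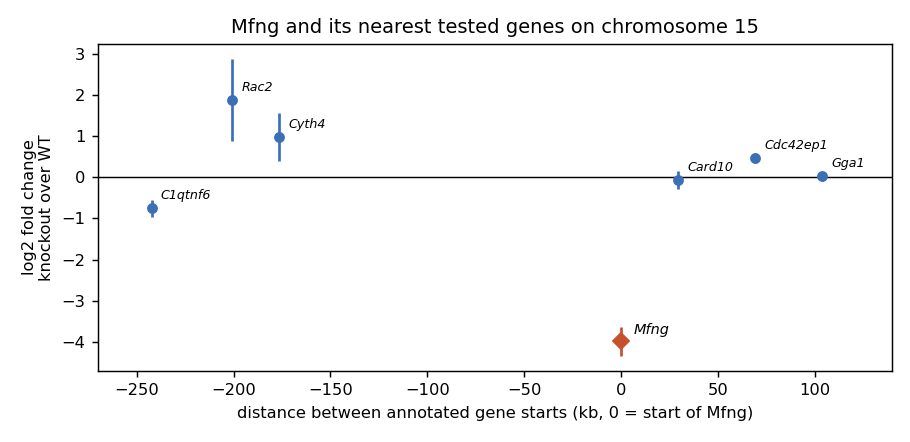
Log2 fold change of KO over WT (y axis, bar = SE) of Mfng (red diamond) and of the 3 nearest tested genes on each side (blue) against the distance between annotated gene starts in kb. Mfng lies at -3.99 and its neighbours between -0.76 and 1.87.

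By the shape of their levels over the 6 libraries, the tested genes most like Mfng were Cnp, Slc25a23, Ndufa4l2, Lrrc75a and Adam33, with Pearson r of 0.998, 0.998, 0.997, 0.997 and 0.997 on log2 CPM. These points fall into the 2 genotypes, so the correlation is a description over 2 separate sets of libraries, and 697 genes (5.21% of those tested) had an r over 0.95, all with KO below WT. The 5 genes were picked by their likeness to Mfng in these same libraries. Their fall in KO follows from that choice and is given without p-values. The fall of Adam33, a membrane metalloprotease, was the largest of the 5 with a log2 fold change of -2.49 (SE 0.190). Its level went from 10.9 ± 1.90 CPM in WT to 1.94 ± 0.0764 CPM in KO (SD, n = 3). Ndufa4l2 fell by 1.64 (SE 0.132), and Cnp (-0.72), Slc25a23 (-0.63) and Lrrc75a (-0.97) fell by less.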

How the data were processed

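RNA-seq of 3 WT and 3 Rnf20 knockout libraries was analysed. The authors prepared poly(A)-selected stranded libraries, used HISAT2 2.1.0 to align the read pairs to GRCm38/mm10 (version from the submitters' processing notes) and deposited raw counts per gene without normalization. The authors also deposited FPKM values from Cufflinks 2.1.1. Their columns of log2 fold change and FDR (adjusted p-value) hold the authors' own comparison and were not used. The counting program is not given in the sources used here.

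The 10 genes and the lists of other pathway genes were chosen with earlier results of these data known. R 4.3.3 and edgeR 4.0.16 were used, with TMM factors, filterByExpr at its defaults and the quasi-likelihood test without covariates, adjusted by Benjamini-Hochberg over 13386 genes. SE is the absolute log2 fold change over the square root of F. log2 CPM used a prior count of 2. The thresholds for a call follow the study's methods, with FPKM read as the mean of a genotype. Total counts were 20545442 to 21746898 per library, and 3 counts equal 0.142 to 0.143 CPM, which covers counting error only. The fit was tested on simulated counts.

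Named genes were the 10 genes, each called gene of the other pathway lists, in each list the gene with the largest fold change and the most abundant gene by RPKM in WT, 3 tested neighbours on each side of Mfng and the 5 genes most like it. Others are marked as picked after their values were seen. Marker lists were fibroblast, endothelial, mural, macrophage and blood, Schwann and neural, myogenic and epithelial. Positions and overlaps came from GENCODE M21, promoters from RefSeq. Alternatives were library size only, RLE size factors, no filter, DESeq2 1.42.0, the replicate number as a block, no condition on FPKM, an adjusted p under 0.05 and each library left out in turn. Deviations of libraries with the same replicate number from their group means correlated at -0.066, 0.037 and 0.011, which showed no pairing by number. With 3 libraries per group and KO replicate 3 apart from the other KO libraries, this check cannot exclude pairing.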

Additional observations from a re-analysis of the deposited data

How the results depend on the processing

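RLE size factors, library size only and no filter on counts kept the called counts within 1.5 times of those reported. Over all genes, 279 called lower and 201 higher became 565 and 417 with DESeq2, 586 and 418 at an adjusted p under 0.05, and 1 to 490 and 0 to 295 with 1 library left out (lowest without a WT library, highest without KO replicate 3). Of the 10 genes, 1 called lower became 3 with DESeq2 and at an adjusted p under 0.05, and 0 to 3 lower and 0 to 1 higher with 1 library left out. Of the other pathway genes, 1 called lower became 2 with DESeq2, without the FPKM condition and at an adjusted p under 0.05, and 0 to 2 with 1 library left out. Called higher, 0 became 1 with DESeq2 and at an adjusted p under 0.05, and 0 to 1 with 1 library left out. At an adjusted p under 0.05, their 16 lower and 6 higher became 4 to 20 and 1 to 14. Beside Mfng, 0 genes were called under every setting run. The cause of these changes was not tested.

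With the replicate number as a block, which the pairing check did not bear out but cannot exclude, 0 genes were called in either direction. At an unadjusted p under 0.05 in this edgeR fit, 2858 were lower and 2694 higher. Thus 0 of the 10 genes and 0 other pathway genes were called, and 10 lower and 2 higher of the latter had an adjusted p under 0.05. The block log2 fold change of Mfng was -3.95.

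Log2 fold changes changed sign without KO replicate 3 for Notch1 (-0.24 to 0.11) and Notch2 (-0.011 to 0.16). They also did so for Tsta3 (0.0065 without WT replicate 3, 0.0077 without KO replicate 1, 0.045 without KO replicate 2, range -0.16 to 0.045), Rac2 (-0.34 without KO replicate 3, range -0.34 to 2.38), Card10 (0.037 without WT replicate 3, 0.15 without KO replicate 3, range -0.18 to 0.15) and Gga1 (-0.038 with library size only, -0.059 without WT replicate 2, -0.054 without KO replicate 3, range -0.059 to 0.095). With 1 library left out, the mean share of Mfng was 10.4% to 13.6% in WT and 0.840% to 0.956% in KO, of Rfng 53.6% to 59.6% and 76.7% to 81.1%, of Notch2 41.1% to 42.8% and 34.6% to 44.7%, and of Notch3 25.2% to 30.2% and 33.0% to 41.4%. The shares of Mfng with the deposited FPKM were 17.2% and 1.22%. At 5 or 6 counts per KO library, the depth limits the precision of the Mfng level.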
